A study of Homo sapiens with 9 samples.

Results

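Genes that build, coat and empty the cell's triglyceride store were followed, 10 in all, in LN229 cells, an established human glioblastoma line, before and after the addition of formate. The members are GPAM, LPIN1, DGAT1 and DGAT2 (synthesis), PLIN2 and PLIN3 (droplet coat) and PNPLA2, LIPE, MGLL and G0S2 (lipolysis), taken by gene symbol from a count table of 23727 genes, and all 10 were found in it. RNA was sequenced in 9 libraries: 3 from untreated cells at 0 h, 3 after 8 h and 3 after 24 h in 500 µM sodium formate. All cells, untreated ones included, were kept in DMEM to which glucose (17 mM), glutamine (2 mM) and fetal bovine serum (10%) had been added. The untreated cells were all taken at 0 h, so formate and time in culture cannot be told apart. The labels number the libraries 1 to 3 in each group and do not say whether these are separate cultures, so p-values measure the spread between these libraries, which may be technical. The line is named LN229 in the growth protocol and LN299 in the source label.

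A cell stores surplus fatty acids as triglyceride, a glycerol backbone with fatty acids attached to each of its hydroxyl groups. Glycerol-3-phosphate acyltransferases such as GPAM add the first fatty acid, lipins such as LPIN1 remove the phosphate to give diacylglycerol, and the diacylglycerol acyltransferases DGAT1 and DGAT2 add the last one. The product is packed into lipid droplets in the cytoplasm, whose surface carries coat proteins of the perilipin family. PNPLA2 (adipose triglyceride lipase), LIPE (hormone-sensitive lipase) and MGLL (monoglyceride lipase) remove the fatty acids again in turn, and G0S2 is an inhibitor of PNPLA2. Gliomas are known to accumulate lipid droplets, and formate is a source of one-carbon units for folate metabolism.

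In the coat pair, PLIN3 was the highest member of the set per length and fell at 24 h, while PLIN2 was at the detection limit. Their promoter stretches are shown for that reason, from RefSeq (GRCh38.p14), as the bases upstream of the start that lie outside annotated exons. PLIN2 is shown for chr9:19127577-19127742 (166 bases) and PLIN3 for chr19:4867769-4867917 (149 bases), both on the minus strand and 5′ to 3′. Capitals mark the GC box, GGGCGG on either strand.
PLIN2: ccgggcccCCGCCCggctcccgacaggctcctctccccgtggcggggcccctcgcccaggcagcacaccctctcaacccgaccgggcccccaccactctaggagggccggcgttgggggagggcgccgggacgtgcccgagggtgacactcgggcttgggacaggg
PLIN3: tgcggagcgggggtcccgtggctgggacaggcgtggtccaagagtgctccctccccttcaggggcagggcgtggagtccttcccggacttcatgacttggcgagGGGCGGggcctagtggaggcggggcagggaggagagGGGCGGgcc
The full 250-base window before the start was 78% G and C for PLIN2 and 70.8% for PLIN3, against a median of 58% over 35116 such windows. It held 28 CpG sites for PLIN2 and 19 for PLIN3, against a median of 11. Both windows were thus rich in CpG sites.

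In these windows 5 motifs were searched on both strands. GGGCGG occurred in 42.6% of all windows, and 2 times each in the full windows of PLIN2 and PLIN3. The E-box CACGTG (6.34% of all windows) occurred once for PLIN2, and the CCAAT box (CCAAT, 32.01%) once for PLIN3. The sterol regulatory element TCACNCCAC (0.883% of all windows) was found in a single member, PNPLA2, where the matched letters were GTGGGGTGA on the reverse strand, 153 bases before the start. The DR1 element (0.0171%) was found in none of the 10 windows of the 7 members that the table held. No match overlapped another. Windows for DGAT1, DGAT2 and MGLL were not analysed here.

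The libraries held between 22222298 and 25848242 counts. Levels are given as CPM, in which each count is divided by the TMM-scaled size of its library. A gene with 3 counts would have 0.141 CPM in untreated replicate 1, whose scaled size was the smallest, and less in the other libraries. The libraries numbered 1 stood apart at 0 h and 8 h: on the first principal component of the 500 most variable genes (70.7% of the variance) they had scores of -23.5 and -21.6, while the other libraries of these groups lay between -3.41 and -0.798. The markers VIM (4330 CPM on average), NES (952) and CD44 (919) were abundant, while GFAP, the defining astrocyte filament, had at most 10 counts in a library. The 8 glioma line markers summed to 6284 to 8635 CPM at 0 h, 6417 to 7351 at 8 h and 5359 to 6209 at 24 h, and 1 of them, S100B, rose (log2 fold change 1.38, edgeR adjusted p = 0.0460). Adipocyte, leukocyte and hepatocyte markers summed to at most 0.619 CPM in any library, and the endothelial ones to 0.308 to 0.656 CPM before 24 h and 1.04 to 1.70 CPM at 24 h, when VWF rose (log2 fold change 1.60, edgeR adjusted p = 0.0304). ADIPOQ, LEP and FABP4 were not among the genes analysed here.

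Of the 10 members, 8 passed the filter on low counts. PLIN2 had 1, 1 and 3 counts at 0 h, 1, 0 and 2 at 8 h, and 0, 2 and 2 at 24 h, which is 12 counts in 9 libraries. G0S2 had 0 counts in all 9 libraries, which allows a level of up to 0.141 CPM in the library of the smallest scaled size. Neither could be tested. PLIN2, the coat protein found on droplets in most tissues, was therefore at the detection limit with and without formate.

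Divided by exon length (RPKM, CPM per kilobase), the untreated levels had a clear order. The length was that of all annotated exons of a gene merged, which can be longer than any single transcript. PLIN3 was highest at 44.2 RPKM, followed by MGLL at 14.97, PNPLA2 at 10.8 and DGAT1 at 6.97. GPAM followed at 5.19 RPKM, LPIN1 at 3.65, DGAT2 at 2.58 and LIPE at 1.31, and PLIN2 stood at 0.0143. The ranges of the 3 untreated libraries did not overlap between any neighbours in this order. The order depends on the length used. In CPM, MGLL (177) stood above PLIN3 (124), and GPAM (50.9) and LPIN1 (43.3) above DGAT1 (28.8). Among the member lipases PNPLA2, LIPE and MGLL, LIPE was thus the lowest and MGLL the highest. The plot of all members by library shows these levels on separate axes.

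**Figure D1:**
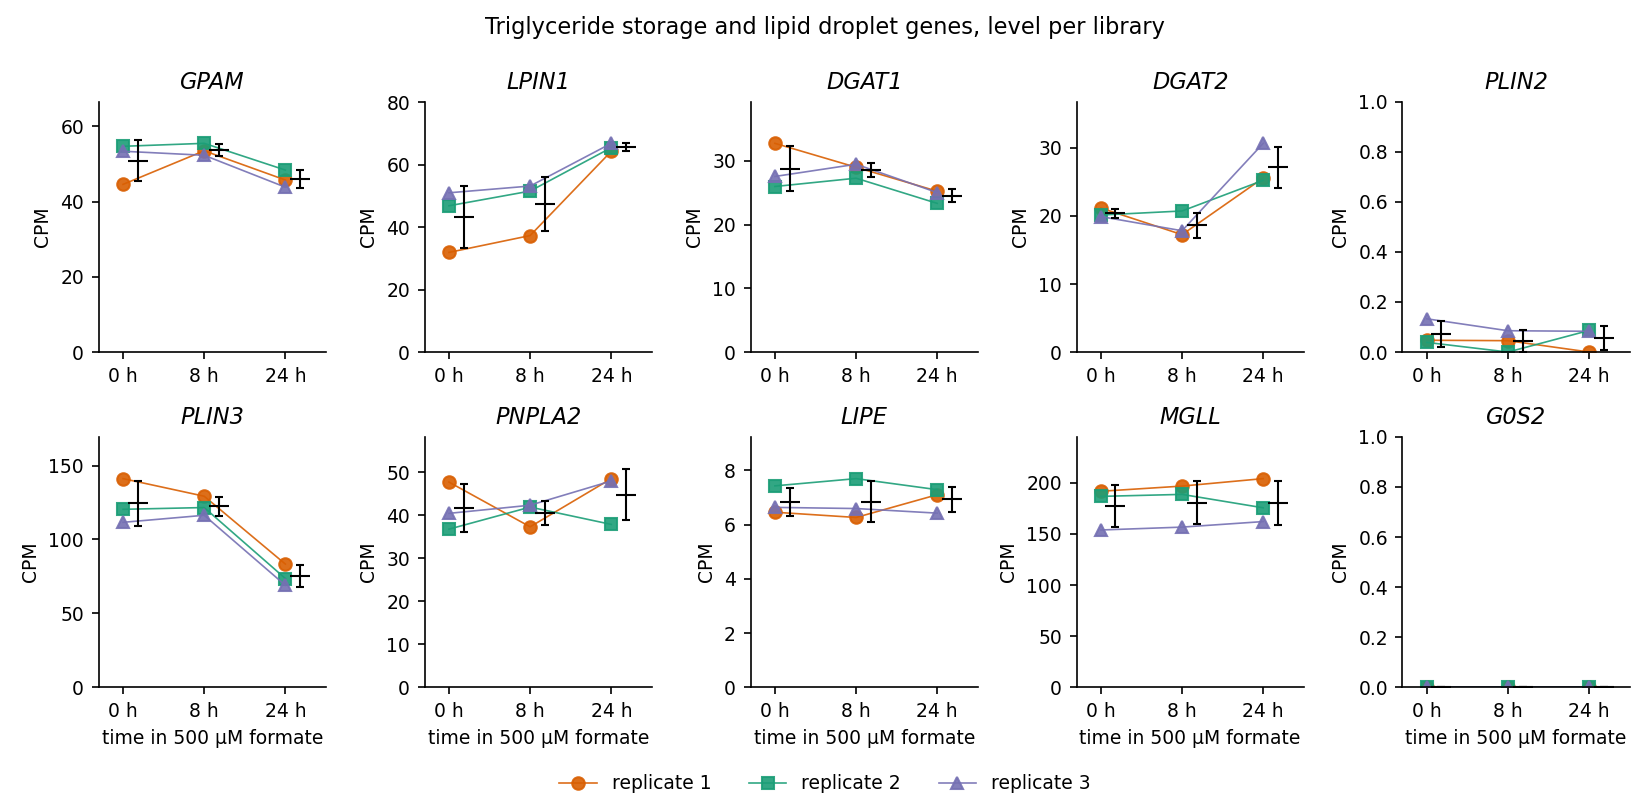
Level of each of the 10 genes in CPM (vertical axis, from 0) at 0, 8 and 24 h (horizontal axis); coloured points joined by lines are libraries with the same number, and the black bars beside them are the mean ± SD of 3 libraries. PLIN3 falls and DGAT2 and LPIN1 stand higher at 24 h than at 0 h, the lipases PNPLA2, LIPE and MGLL overlap at all times, and PLIN2 and G0S2 lie at or near 0.

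At 8 h, edgeR's quasi-likelihood test called none of the 8 tested members (adjusted p = 0.9999 for each), as it called 0% of all 15273 tested genes. No member had an unadjusted p under 0.05, against 0.517% of all genes, and the DESeq2 and limma alternatives also called none. In no member did the 8 h libraries lie clear of the untreated ones, which occurred in 3.31% of all genes. The log2 fold changes lay between -0.13 (DGAT2) and 0.13 (LPIN1). The 95% interval was widest for LPIN1, from -0.25 to 0.51, so without pairing a moderate rise of that gene at 8 h was not detectable at this precision. Same-numbered libraries of LPIN1 differed by 0.23, 0.14 and 0.06 on the log2 scale for numbers 1, 2 and 3. With the library number as a block, 0 members and 0% of all genes were called at 8 h. For PLIN3 the interval ran from -0.27 to 0.22.

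At 24 h against 0 h, a single member passed the threshold of 0.05 on the adjusted p, PLIN3, and it fell. Over all genes 4.25% were called, 2.47% higher and 1.77% lower. In bulk RNA, fewer cells with a transcript and less of it per cell cannot be told apart. The 8 members had a median log2 fold change of 0.02, beside 0.01 over all tested genes. With the library number as a block, 3 members were called, LPIN1 and DGAT2 higher and PLIN3 lower. Of all genes 24.1% were called, 12.6% higher and 11.6% lower. The labels do not state such a pairing. The correlations bore it out only in part: 24 h library 2 was closer to untreated library 3 (0.270) than to untreated library 2 (0.164). Calls that need the block therefore rest on an assumed pairing. The 24 h libraries lay clear of the untreated ones in 4 members, above in LPIN1 and DGAT2 and below in DGAT1 and PLIN3, against 30.3% of all genes (15.9% above and 14.4% below).

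PLIN3 (ENSG00000105355, chr19:4838341-4867768, minus strand, GRCh38), a perilipin that moves between the cytosol and the surface of droplets, had 141, 120 and 112 CPM in the 3 untreated libraries. It had 129, 122 and 116 CPM at 8 h and 83.4, 73.6 and 69.0 CPM at 24 h. All 24 h libraries were below all others, and the order of the numbered libraries was the same at each time. The mean fell from 124 ± 15.2 CPM (SD, n = 3) at 0 h to 75.3 ± 7.33 CPM at 24 h, which is 1.65-fold lower. The log2 fold change was -0.72 (SE 0.11, 95% interval -0.97 to -0.48, edgeR adjusted p = 0.0170, and 0.000181 with the block). Same-numbered libraries differed by -0.76, -0.71 and -0.69 on the log2 scale for numbers 1, 2 and 3. The call was lost without 24 h replicate 2 (adjusted p = 0.104) or replicate 3 (0.0979), with log2 fold changes of -0.71 and -0.67; with the block it was kept whichever library was left out.

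PLIN3 was the only perilipin with more than 10 counts in a library. Of the other family members, PLIN1, the coat protein of fat cells, had at most 10 counts in a library, PLIN4 at most 3 and PLIN5, known from oxidative tissues, at most 2. Exons of PLIN3 overlap an opposite-strand gene over 17.8% of their length, but that gene had 0 to 2 counts. The genes of mitosis moved in the same libraries, in a list chosen with earlier results of these data known. There 10 of 10 had negative fold changes at 24 h (median -0.45). Of these, 5 were called lower, against 1.77% of all genes. Their summed level was 4838 to 4964 CPM at 0 h, 4659 to 5712 at 8 h and 2916 to 4322 at 24 h. The part of the mitosis genes in the fall of PLIN3 was not tested.

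Among the 3 genes whose pattern over the 9 libraries was most like that of PLIN3 were ADGRE5, an adhesion receptor, and PRKAG2, a regulatory subunit of the AMP-activated kinase. Their centred log2 CPM each differed from that of PLIN3 by 0.05 on average, over a comparison with 10840 genes of at least 5 CPM. ADGRE5 had 119, 116 and 72.6 CPM on average at 0, 8 and 24 h, and PRKAG2 had 38.6, 39.7 and 24.9.

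The synthesis genes did not move together. DGAT2 (ENSG00000062282, chr11:75759512-75801535, plus strand), the acyltransferase tied most closely to newly made fatty acids, had 21.2, 20.1 and 19.9 CPM at 0 h, 17.3, 20.7 and 17.8 at 8 h, and 25.6, 25.2 and 30.7 at 24 h. Every 24 h library was above every earlier one. The mean was 20.4 ± 0.670 CPM at 0 h, 18.6 ± 1.87 at 8 h and 27.2 ± 3.04 at 24 h. Against 0 h the log2 fold change was 0.41 (SE 0.12, 95% interval 0.16 to 0.67), which missed the threshold without the block (edgeR adjusted p = 0.0628) and passed it with the block (0.0198). The call with the block was lost without untreated replicate 2 (adjusted p = 0.0852), untreated replicate 3 (0.0583) or 24 h replicate 3 (0.104, log2 fold change 0.29). Of its exon length, 6.83% is shared with opposite-strand genes that were not analysed here.

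DGAT1 (ENSG00000185000, chr8:144314584-144326910, minus strand) is the other acyltransferase of the last step. It had 32.8, 25.99 and 27.6 CPM at 0 h, 29.01, 27.3 and 29.5 at 8 h, and 25.3, 23.3 and 25.0 at 24 h. Its 24 h libraries were all below the earlier ones, but the log2 fold change of -0.23 against 0 h (SE 0.11, 95% interval -0.46 to 0.01) did not pass the test without the block (adjusted p = 0.202) or with it (0.0889). The level of DGAT2 relative to DGAT1, both per length, was 0.373 ± 0.0338 at 0 h, 0.341 ± 0.0483 at 8 h and 0.578 ± 0.0565 at 24 h. The 24 h ratios, 0.530 to 0.640, lay above the untreated ones, 0.338 to 0.405. The exact two-sided permutation p was 0.1, the smallest that 3 against 3 libraries can give. DGAT1 remained the higher of the pair per length in every library, with length taken as all annotated exons of a gene merged. Without division by length, DGAT2 was the higher at 24 h (27.2 against 24.5 CPM on average). At 0 h DGAT1 was the higher in CPM as well (28.8 against 20.4). Its exons overlap HSF1 on the opposite strand over 3.36% of their length, and HSF1 had 1583 to 2182 counts. On the same strand they overlap AC233992.1 and MIR6848 over 10.9% of their length, and the counts of these are not reported here.

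LPIN1 (ENSG00000134324, chr2:11677595-11827409, plus strand), the phosphatidate phosphatase of the pathway, had 31.9, 46.9 and 51.0 CPM at 0 h, 37.3, 51.6 and 53.2 at 8 h, and 64.3, 65.5 and 66.9 at 24 h. The library numbered 1 was the lowest at each time; it stood well below the others at 0 h and 8 h and close to them at 24 h. The SD was 10.0 CPM at 0 h and 8.73 at 8 h, against 1.27 at 24 h. The log2 fold change at 24 h against 0 h was 0.60 (SE 0.17, 95% interval 0.22 to 0.98, edgeR adjusted p = 0.0681), and 0.63 with the block (adjusted p = 0.00313). Same-numbered libraries differed by 1.01, 0.48 and 0.39 on the log2 scale. Without all libraries numbered 1 it was 0.44 (adjusted p = 0.00396).

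GPAM (ENSG00000119927, chr10:112149864-112215377, minus strand), the mitochondrial acyltransferase of the first step, had 44.6, 54.7 and 53.4 CPM at 0 h, 53.5, 55.5 and 52.3 at 8 h, and 45.7, 48.4 and 43.8 at 24 h. The untreated and 24 h libraries overlapped, and the log2 fold change of -0.15 (SE 0.10, 95% interval -0.37 to 0.07, adjusted p = 0.363) did not pass the test. Without untreated replicate 1, its lowest untreated library, it was -0.25 (adjusted p = 0.118), and with the block as well -0.25 (0.0203), which passed.

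**Figure D2:**
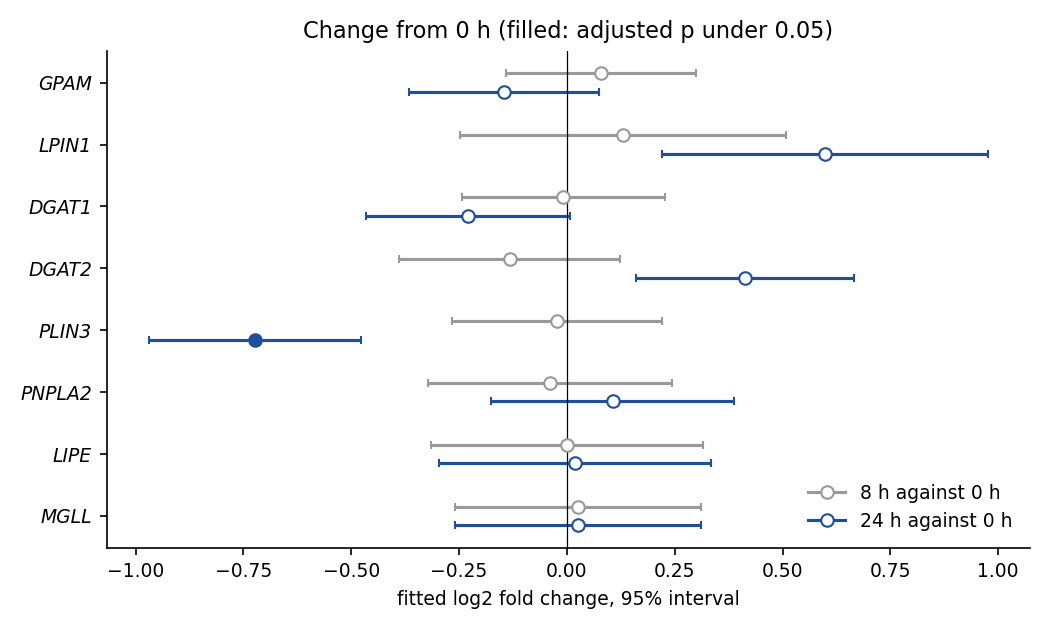
Fitted log2 fold change (horizontal axis) with its 95% interval for the 8 tested genes at 8 h (grey) and 24 h (blue) against 0 h, without the replicate block; filled points have an adjusted p under 0.05. PLIN3 at 24 h (-0.72) is the single filled point, and the 24 h intervals of LPIN1 and DGAT2 lie above 0.

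The lipase genes among the members stayed within the spread of the libraries. PNPLA2 (ENSG00000177666, chr11:818902-825573, plus strand) had 47.7, 36.7 and 40.4 CPM at 0 h, 37.3, 41.9 and 42.3 at 8 h, and 48.5, 37.8 and 47.9 at 24 h. LIPE (ENSG00000079435, chr19:42401507-42427426, minus strand) had 6.46, 7.43 and 6.64 CPM at 0 h, 6.27, 7.70 and 6.59 at 8 h, and 7.11, 7.29 and 6.42 at 24 h. MGLL (ENSG00000074416, chr3:127689062-128052190, minus strand) had 192, 187 and 154 CPM at 0 h, 197, 189 and 157 at 8 h, and 204, 176 and 162 at 24 h. In each of them the groups overlapped at all times. The means of MGLL, 177, 181 and 181 CPM, lay closer together than its libraries did at any time.

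From 0 h to 24 h the log2 fold change was 0.11 for PNPLA2 (95% interval -0.18 to 0.39, adjusted p = 0.616), 0.02 for LIPE (-0.30 to 0.33, 0.942) and 0.03 for MGLL (-0.26 to 0.31, 0.917). These intervals leave room for changes of up to about 0.39 on the log2 scale and exclude a change of the size fitted for PLIN3. Overlap with opposite-strand exons was 10.4% for PNPLA2, whose partner had 1 to 5 counts, and 9.60% for LIPE, whose partner LIPE-AS1 had 11 to 38 counts, while MGLL had none.

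Between 8 h and 24 h, 2 of the 8 members were called, DGAT2 higher and PLIN3 lower, against 4.56% of all genes (2.84% higher and 1.72% lower). The comparison shares its 24 h libraries with the one above. The log2 fold change was 0.55 for DGAT2 (SE 0.12, 95% interval 0.29 to 0.80, edgeR adjusted p = 0.0301), a 1.46-fold rise. For PLIN3 it was -0.70 (SE 0.11, 95% interval -0.95 to -0.45, adjusted p = 0.0177). For LPIN1 it was 0.47 (adjusted p = 0.132), for GPAM -0.23 (0.209), for DGAT1 -0.22 (0.250), for PNPLA2 0.14 (0.534), for LIPE 0.02 (0.951) and for MGLL -0.00 (0.997). The 24 h libraries lay clear of the 8 h ones in 5 members, above in LPIN1 and DGAT2 and below in GPAM, DGAT1 and PLIN3, against 34.3% of all genes (18.2% above and 16.2% below).

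These calls depended on which libraries were kept. DGAT2 lost its call without 24 h replicate 2 (adjusted p = 0.109) or replicate 3 (0.169) and without 8 h replicate 1 (0.160) or replicate 3 (0.0916). Its log2 fold changes were then 0.58, 0.44, 0.48 and 0.51. PLIN3 lost its call without 24 h replicate 2 (0.0936) or replicate 3 (0.0971) and without 8 h replicate 1 (0.0755). Its log2 fold changes were then -0.70, -0.65 and -0.68. How many of all genes were called in these fits is not reported here. LPIN1 and GPAM, not called with all libraries, passed the test without untreated replicate 1 (0.0257 and 0.0414). The log2 fold change of LPIN1 fell from 0.47 to 0.31 without 8 h replicate 1 (adjusted p = 0.500).

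Chromosomal neighbours of PLIN2 and G0S2, the members that could not be tested, were examined in the same libraries. PLIN2 (ENSG00000147872, chr9:19108375-19149290, minus strand) lies 5256 bases from HAUS6, a subunit of the augmin complex of the spindle, which had 61.0 to 78.9 CPM. RRAGA, a GTPase of amino acid signalling 57392 bases away, had 96.5 to 122 CPM, and the ribosomal protein gene RPS6 had 947 to 1578 CPM. DENND4C, on the other side at 81145 bases, had 18.8 to 48.3 CPM. All 4 thus had at least 398 counts in every library, while PLIN2 between them had at most 3. G0S2 (ENSG00000123689, chr1:209675420-209676388, plus strand) lies 22954 bases from LAMB3, a laminin chain with 15.5 to 45.6 CPM, and had 0 counts. Not every neighbour was expressed: TRAF3IP3, 79644 bases from G0S2, had 3 to 10 counts, and ACER2, beyond RPS6, had 31 to 70. HSD11B1 and CAMK1G beside G0S2 and SAXO1 beside PLIN2 were not analysed here.

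**Figure D3:**
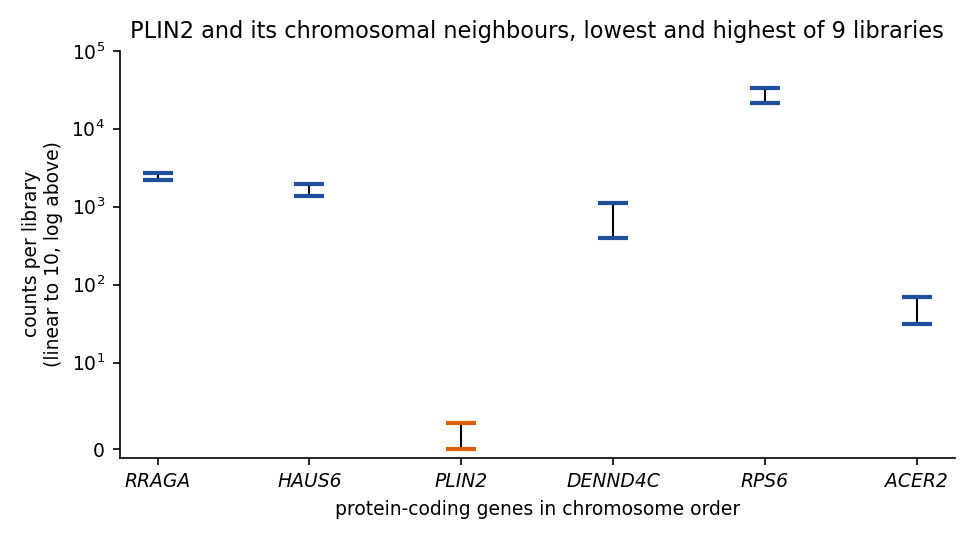
Lowest and highest count among the 9 libraries (vertical axis, linear up to 10 and logarithmic above) for PLIN2 (orange) and the measured protein-coding genes beside it (blue), in chromosome order. PLIN2 lies between 0 and 3 counts, whereas HAUS6 and DENND4C on either side lie between 398 and 1934.

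Other genes of triglyceride and sterol ester storage were taken from lists made by function, with 52 genes, of which 50 were in the table and 36 were tested. These lists, too, were made with earlier results of these data known. At 8 h edgeR called none of them, none had an unadjusted p under 0.05, and DESeq2 and limma also called none. At 24 h against 0 h it called 2, both lower, against 4.25% of all genes, and the median over the 36 was 0.09. With the block it called 9, 5 higher and 4 lower, against 24.1% of all genes; both shares are near those of all genes. The called pair was GPAT3 and NCEH1, and both were also the calls of 24 h against 8 h.

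GPAT3 encodes a second acyltransferase of the first step, in the endoplasmic reticulum. It had 210, 159 and 174 CPM at 0 h, 207, 160 and 175 at 8 h, and 116, 101 and 86.2 at 24 h, with all 24 h libraries below all others. The log2 fold change was -0.84 (SE 0.15, edgeR adjusted p = 0.0202) against 0 h and -0.84 (0.0204) against 8 h. Per length its transcript stood above that of GPAM. The ratio was 10.3 ± 2.704 at 0 h, 9.52 ± 1.39 at 8 h and 6.21 ± 0.859 at 24 h. In CPM, without division by length, the means at 0 h were 181 for GPAT3 and 50.9 for GPAM. NCEH1, a hydrolase of cholesterol esters, had 86.1, 73.3 and 79.9 CPM at 0 h, 110, 77.7 and 78.2 at 8 h, and 53.0, 40.2 and 32.3 at 24 h. Its log2 fold change was -0.93 (SE 0.18, adjusted p = 0.0268) against 0 h and -1.08 (0.0183) against 8 h. Without 24 h replicate 2 or 3 neither gene passed (adjusted p = 0.108 and 0.109 for GPAT3, 0.124 and 0.122 for NCEH1, against 0 h). The log2 fold changes were then -0.84 and -0.74 for GPAT3 and -0.91 and -0.78 for NCEH1.

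The genes called with the block alone, named here after their values were seen, were ACSL3, PNPLA3, LIPA, PPARA and CEBPB (higher) and AUP1 and PPARG (lower). ACSL3, an acyl-CoA synthetase found on forming droplets, had 283, 469 and 463 CPM at 0 h and 634, 687 and 736 at 24 h (log2 fold change 0.76, edgeR adjusted p = 0.0600, and 0.000795 with the block). LIPA, the lysosomal acid lipase, had 93.8, 158 and 144 CPM at 0 h and 187, 242 and 295 at 24 h (0.87, 0.0539, and 0.000203 with the block). PNPLA3, a relative of PNPLA2, had 2.92, 6.24 and 5.58 CPM at 0 h and 8.37, 11.7 and 11.6 at 24 h (1.10, 0.0600, and 0.000614 with the block). In ACSL3, LIPA and PNPLA3 the library numbered 1 was the lowest at 0 h and at 8 h, as it was for LPIN1. The fit without the libraries numbered 1 is given above for LPIN1, and below for the other storage genes as a count of calls only. Why these libraries stood apart was not tested.

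**Figure D4:**
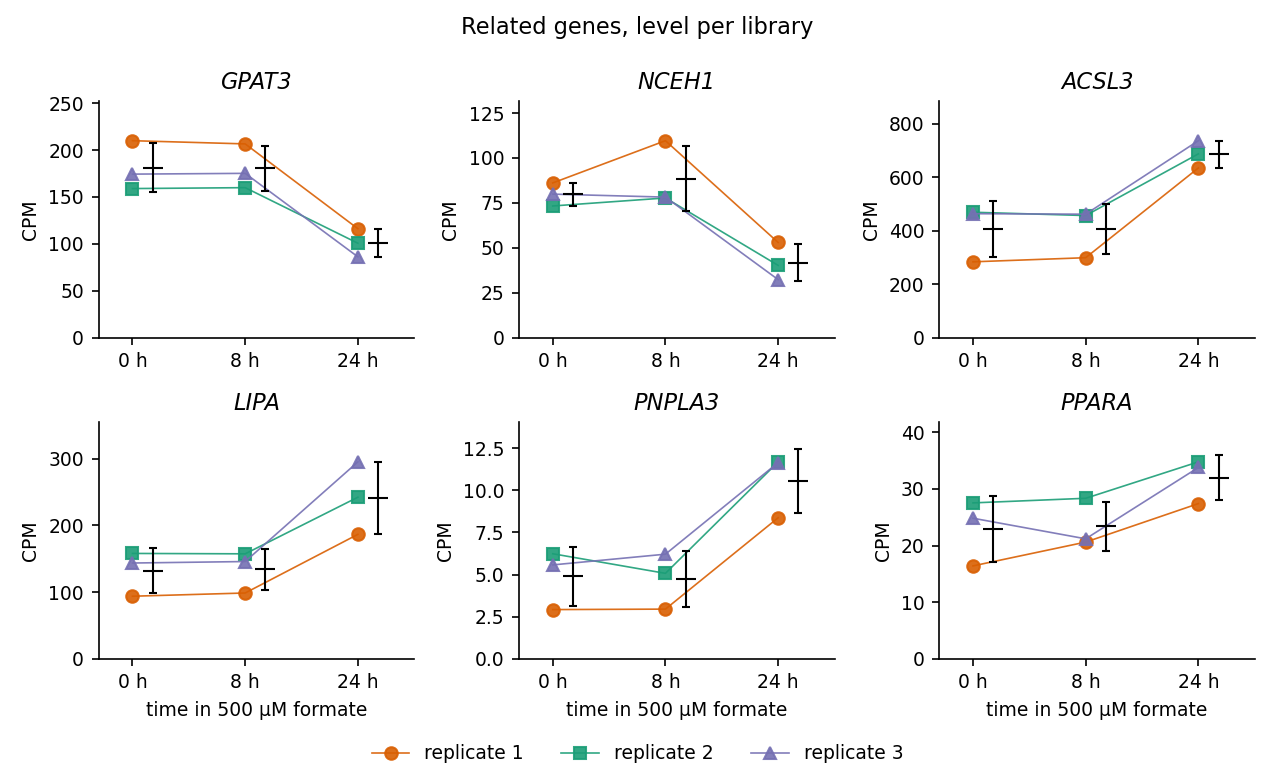
Level in CPM (vertical axis, from 0) of 6 related genes at 0, 8 and 24 h; coloured points joined by lines are libraries with the same number, and black bars are the mean ± SD of 3 libraries. GPAT3 and NCEH1 are lower at 24 h in every numbered library, and ACSL3, LIPA, PNPLA3 and PPARA are higher, with replicate 1 lowest at 0 h and 8 h.

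Genes that make the fatty acids to be stored were set beside the members. The list held 13 genes of fatty acid synthesis and desaturation, all tested. It was chosen with earlier results of these data known, so its share of calls is a description and not independent support. At 24 h against 0 h, 7 were called higher and none lower, against 2.47% and 1.77% of all genes. The fold change was positive in 12 and negative in 1, ELOVL1 (-0.50), whose 24 h libraries all lay below the untreated ones. The median log2 fold change was 0.54, beside 0.02 for the 8 members, and the difference between the lists was not tested. The smallest p-values belonged to FADS2, a desaturase, which had 89.5 ± 14.2 CPM at 0 h and 260.05 ± 36.3 at 24 h (log2 fold change 1.54, adjusted p = 0.0108), and FASN, the fatty acid synthase, which had 571 ± 87.4 and 1042 ± 49.4 CPM (0.87, 0.0167). With the block, 10 of the 13 were called higher and 1 lower, against 12.6% and 11.6% of all genes.

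**Figure D5:**
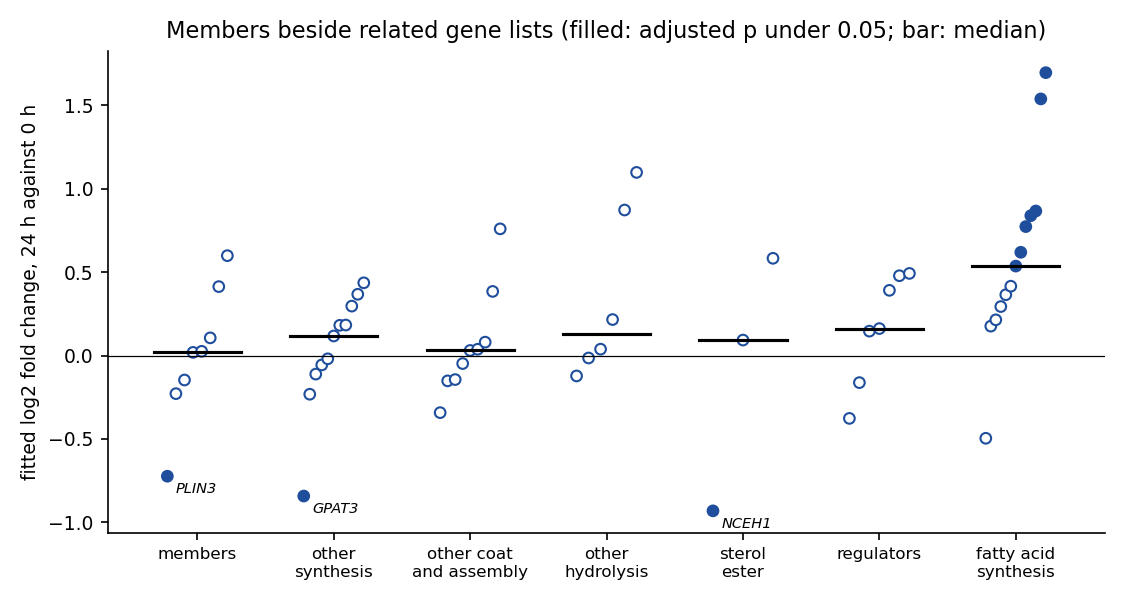
Fitted log2 fold change at 24 h against 0 h (vertical axis) of each tested gene, by list (horizontal axis), with the list's median as a bar and genes with an adjusted p under 0.05 filled. Among the members and the lists of storage genes the filled points are PLIN3, GPAT3 and NCEH1, all below 0, whereas the 7 filled points of fatty acid synthesis lie above 0.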

How the data were processed

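Per the labels' protocols, the 9 libraries were stranded mRNA libraries. The authors deposited raw counts per Ensembl gene. The submitters' processing notes name bcl2fastq 2.20.0.422, STAR 2.7.4a and GRCh38; the counting program, annotation and strand setting are not given in the sources used here. Ensembl identifiers were matched to symbols in a reference table, and coordinates and exon lengths from GENCODE on GRCh38.

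Counts were filtered with filterByExpr (15273 of 23727 genes kept), scaled with TMM and fitted with edgeR 4.0.16 in R 4.3.3, 1 mean per group over 9 libraries. Quasi-likelihood tests were two-sided, with Benjamini-Hochberg adjustment over all tested genes and a threshold of 0.05. Standard errors were the fitted log2 fold change divided by the square root of F. The test was checked on simulated counts of independent libraries, with the same spread for every gene and no differences between numbered libraries. That check therefore does not measure error or power in these data. Alternatives used DESeq2 1.42.0 and limma 3.58.1, other scalings and filters, a replicate block, and left-out libraries.

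The members and lists were chosen with earlier results of these data known. Named genes were all members, list genes with an adjusted p under 0.05 (at most 4 a list), 2 fatty acid synthesis genes, and the 3 genes most like a called member, of which 1 is not reported here. Deviations of same-numbered libraries from their group means correlated at 0.367, 0.164 and 0.251 between 0 h and 24 h. Between 0 h and 8 h they correlated at 0.476, 0.432 and 0.414. Both were taken as paired, although 24 h library 2 correlated more with untreated library 3 (0.270) than with untreated library 2. Between 8 h and 24 h the same-numbered libraries correlated at 0.423, 0.0367 and 0.404, and were not taken as paired.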

Additional observations from a re-analysis of the deposited data

Results flagged for a closer look

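The effect at 24 h differed from the effect at 8 h for 4 named genes, by the contrast of 24 h with 8 h in edgeR (quasi-likelihood, p adjusted by Benjamini-Hochberg). The difference was 0.55 on the log2 scale for DGAT2 (adjusted p = 0.0301), -0.70 for PLIN3 (0.0177), -0.84 for GPAT3 (0.0204) and -1.08 for NCEH1 (0.0183). These 4 are listed because this contrast called them, as it called 4.56% of all genes. The 24 h libraries lay clear of the 8 h ones in each of the 4 genes, which adds little to the calls. Of all genes, 34.3% lay clear (18.2% above and 16.2% below). Groups of 3 libraries are too small for a test of single outlying libraries.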

How the results depend on the processing

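Leaving out a library moved the number of members called from 0 to 4 at 24 h against 0 h and from 0 to 5 at 24 h against 8 h, with or without the block. For the other storage genes it moved from 0 to 9 and from 0 to 13. The shares of all genes called in these fits are not reported here. The same holds for the alternatives below, except the block (24.1% of all genes at 24 h against 0 h). These counts therefore cannot be set against all genes, and are not read as a trait of the listed genes. At 24 h against 0 h, DESeq2, the replicate block and leaving out all libraries numbered 1 (chosen after seeing the data, as were the left-out libraries under the block) each called 3 members, against 1. The other storage genes, 2 called, became 6 with DESeq2, 5 without the filter on low counts, 9 with the block and 7 without the libraries numbered 1. At 24 h against 8 h, where the numbers did not pair the libraries, their count of 2 became 6 with DESeq2, 6 without the filter, 9 with the block, 7 with only the compared groups and 11 without the libraries numbered 1; the block also called LPIN1 beside DGAT2 and PLIN3 there (20.5% of all genes). PLIN3 kept its direction at 24 h against 0 h and 8 h under every alternative.

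Values near 0 changed sign. Without the libraries numbered 1, 8 h against 0 h gave -0.0041 for GPAM, 0.085 for DGAT1, 0.036 for PLIN3 and 0.13 for PNPLA2; 24 h against 0 h gave -0.038 for LIPE and -0.011 for MGLL, and 24 h against 8 h gave -0.058 for LIPE. DGAT1 at 8 h was 0.0091 with library totals, 0.00085 with limma, 0.0016 with at least 10 counts in every library and 9.1e-05 with only the compared groups. LIPE at 8 h was -0.0044 with limma, and MGLL at 24 h against 8 h was 0.060 with library totals. Leaving out single libraries, 8 h against 0 h ranged from -0.077 to 0.092 for DGAT1, -0.011 to 0.16 for GPAM, -0.091 to 0.069 for LIPE, -0.049 to 0.28 for LPIN1, -0.053 to 0.13 for MGLL, -0.081 to 0.074 for PLIN3 and -0.16 to 0.11 for PNPLA2. From 0 h to 24 h the range was -0.048 to 0.082 for LIPE and -0.074 to 0.093 for MGLL. From 8 h to 24 h it was -0.060 to 0.11 for LIPE, -0.10 to 0.059 for MGLL and -0.015 to 0.26 for PNPLA2. The cause was not tested for any of these.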
